A study of Mus musculus with 4 samples.

Results

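The genes described here mark the vessel wall of the mouse heart: 6 genes of endothelial cells (Fabp4, Kdr, Cdh5, Pecam1, Aqp1 and Egfl7) and 4 genes of mural cells (Acta2, Tagln, Myh11 and Notch3). They were chosen by name, with earlier results of these data known. Shares of all genes that stand beside their counts below are thus a description and no test. The counts of all RefSeq transcripts of a symbol were summed. The 10 genes stand among 25044 genes and unmatched transcripts in the files, and 9344 of those held at least 1 count. Of the 10, 7 had counts, and Pecam1, Egfl7 and Myh11 were listed at 0 in all 4 libraries.

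Whole-heart RNA was sequenced in 4 libraries, 1 per group, and every library pools 3 hearts of animals aged 12 weeks. Transgenic cMyBP-CΔC10mut mice, which carry a 25bp variant of MYBPC3 and stand for hypertrophic cardiomyopathy (HCM) in the series title, gave the library dC10mut. It was set against NTG, from nontransgenic mice; both have the label C57BL/6. Mice named cMyBP-C(t/t), which stand for dilated cardiomyopathy (DCM), gave the library tt. It was set against the library control, from control mice; both have the label FvB/N. Cardiac myosin binding protein C is a thick-filament protein of heart muscle cells. The promoter of the transgene and the sex of the animals are not given in the sources used here. Because a group is a single library, there is no replicate check on any difference within a pair, and the intervals cover counting error only.

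Endothelial cells line the coronary vessels and the dense capillary bed between heart muscle cells, and mural cells (smooth muscle cells and pericytes) wrap around them. Vascular endothelial growth factor acts on endothelial cells through the receptor that Kdr encodes. Jagged and Delta ligands of endothelial cells act on Notch3, a receptor of mural cells. Acta2, Tagln and Myh11 are contractile genes of smooth muscle, transcribed under serum response factor, which binds a short DNA element named the CArG box, and its partner myocardin.

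The libraries held few counts, with totals between 170543 and 187365. These totals are assigned reads and do not give the depth of sequencing. At these totals 1 count equals 5.34 to 5.86 CPM, a unit that sets every library to one total. Counts of the Xist locus were on the Tsix row (147 in dC10mut and 0 in NTG, 159 in tt and 0 in control) more than on the Xist row (8 in dC10mut and 0 in NTG, 14 in tt and 0 in control). The Y-linked gene Ddx3y had 0 counts in dC10mut and 1 in NTG, and 0 in tt and 14 in control. Sex and genotype of the pools can therefore not be told apart. The kit keeps the strand of origin, but no source used here gives the setting with which strands were counted. Genes that share exon positions with a gene on the other strand held between 72.0% and 75.6% of the counts. Mhrt, which is transcribed from the strand opposite Myh7, held 6620 counts in dC10mut and 1778 in NTG, against 11 and 27 for Myh7. Which strand the counted reads came from was not tested, and this holds for rows that face no other gene as well. A row that faces another gene cannot be assigned to one of both genes.

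A count of 0 went with the number of RefSeq transcripts of a gene. All 6 members with 1 transcript in the files had counts (Fabp4, Cdh5, Aqp1, Acta2, Tagln and Notch3), against 1 of the 4 members with more (Kdr). Over the whole files, 45.7% of the 16947 genes with 1 transcript had a count, against 19.8% of the 7900 genes with 2 or more. Gapdh, an enzyme of glycolysis that every cell uses, has 2 transcripts and was also listed at 0 in all 4 libraries. The zeros of Pecam1, an adhesion molecule of endothelial junctions, Egfl7, a secreted endothelial protein, and Myh11, the smooth muscle myosin heavy chain, are therefore given as listed and carry no level.

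At Egfl7 (chromosome 2, 26580014 to 26593120, GRCm38) the rows of the other strand did hold counts. The gene hosts Mir126a, a microRNA of endothelial cells. Mir126b is annotated on the opposite strand at the same place. The row of Mir126b held 3 counts in dC10mut and 5 in NTG, and 7 in tt and 7 in control, while that of Mir126a held 0 in all 4. Agpat2, which also faces Egfl7, held 5 counts in dC10mut and 8 in NTG, and 5 in tt and 16 in control. The 2 mature miRNAs below, from RefSeq (GRCm38.p6), are shown because they lie across from each other and thus make the strand question visible. Capitals mark the 19 bases in which they are reverse complements.
mmu-miR-126a-3p (chr2:26591402-26591423, plus strand): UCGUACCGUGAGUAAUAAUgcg
mmu-miR-126b-5p (chr2:26591399-26591420, minus strand): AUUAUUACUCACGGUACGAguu

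RefSeq promoter sequences (250 bases before the start of a transcript, GRCm38.p6) were at hand for 5 of the 10 members, Kdr, Aqp1, Egfl7, Acta2 and Notch3. The 2 that were higher in dC10mut than in NTG, Acta2 and Aqp1, are shown. The Acta2 promoter holds 2 elements of the CArG type, in capitals, allowing 1 G or C among the 6 central bases. They begin 84 and 34 bases before the start. Only 30 bases around each are given, since another transcript of the gene has its untranslated first exon there.
Acta2, distal (chr19:34255438-34255467, minus strand): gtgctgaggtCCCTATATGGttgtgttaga
Acta2, proximal (chr19:34255388-34255417, minus strand): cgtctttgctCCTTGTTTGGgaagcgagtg

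Elements of this type, which read the same on both strands in this search, occurred in 8.60% of 32817 promoter windows of the same length, and 2 or more in 0.670%. Kdr and 1 of the 3 Egfl7 promoters held 1 each, while those of Aqp1 and Notch3 held none. A strict CArG box, with no G or C in its centre, was in none of the members' windows and in 1.47% of all. The Aqp1 promoter, by contrast, holds the ETS-type letters AGGAAG 29 bases before the RefSeq start and a GC box, GGGCGG. Both are in capitals and both were searched on either strand. The gene position given below for Aqp1 comes from another annotation and begins further downstream, at 55336432. AGGAAG was in 29.5% of all windows and GGGCGG in 32.7%. These matches describe the letters and show no binding.
Aqp1 (chr6:55336049-55336298, plus strand): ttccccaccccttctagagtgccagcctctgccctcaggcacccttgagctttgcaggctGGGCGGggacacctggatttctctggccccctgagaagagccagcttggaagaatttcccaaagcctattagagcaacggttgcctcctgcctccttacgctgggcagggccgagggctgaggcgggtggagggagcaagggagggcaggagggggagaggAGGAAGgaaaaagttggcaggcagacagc

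Fabp4 gave 54.2% of the 1186 counts of the members, and no other member exceeded 39 counts in a library. Levels between genes were compared as scaled CPM per kb of transcript, averaged over the 4 libraries. Fabp4, a fatty acid carrier of capillary endothelium and fat cells, stood highest at 1001, with 591 in its lowest library. Tagln, an actin-binding protein of smooth muscle, followed at 101 (range over libraries 84.6 to 124). Acta2 at 47.4 (18.4 to 64.8), Aqp1 at 43.6 (19.0 to 62.8) and Cdh5 at 36.7 (19.5 to 60.9) overlapped throughout. Kdr at 18.8 (9.64 to 25.1) and Notch3 at 15.9 (7.33 to 26.4) had the lowest means, but their ranges overlapped each other and those of Acta2, Aqp1 and Cdh5. In NTG the order differed, with Notch3 at 26.4 and Kdr at 24.2 above Aqp1 at 19.0 and Acta2 at 18.4. Kdr has 2 transcripts in the files, 1 of them at 0 in all 4 libraries, while the other 6 genes have 1 transcript each. Since genes with more transcripts had counts less often, the place of Kdr in this order is uncertain.

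**Figure D1:**
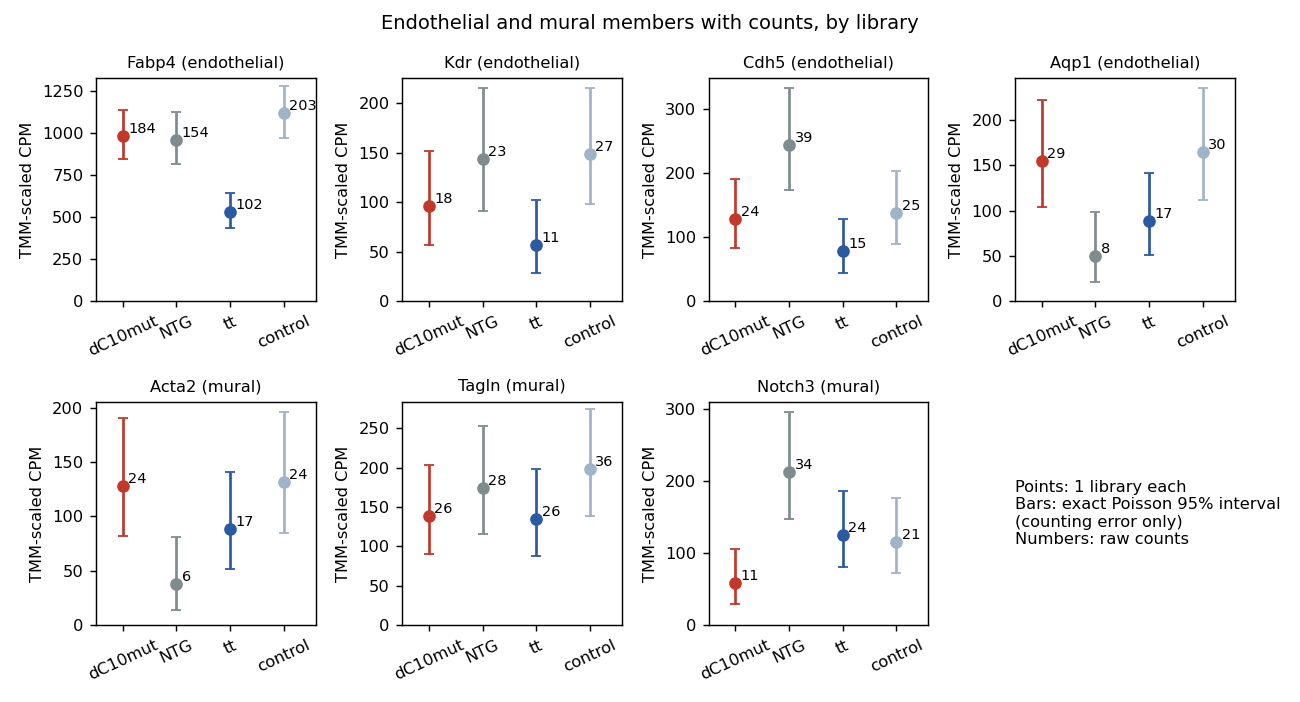
TMM-scaled CPM of the 7 members with counts, by library (dC10mut, NTG, tt and control); each point is 1 library, bars are exact Poisson 95% intervals, and the numbers are raw counts. Fabp4 was lowest in tt (102 counts), and Acta2 and Aqp1 were lowest in NTG (6 and 8 counts).

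The DCM pair asks how hearts of cMyBP-C(t/t) mice differ from those of control mice. Fabp4 and Kdr were at least 2-fold lower in tt than in control, and the other 2 endothelial members with counts, Cdh5 and Aqp1, had log2 ratios of -0.80 and -0.88. No mural member was 2-fold apart. Fewer cells of a type and less RNA per cell cannot be told apart in such bulk samples.

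Fabp4 (chromosome 3, 10204088 to 10208576) had 102 counts in tt and 203 in control. This was 2.10-fold lower (log2 ratio of scaled counts -1.07, 95% interval -1.43 to -0.73). The tt library was below the other 3 libraries, which held 154 to 203 counts. Kdr, the main growth factor receptor of endothelium (chromosome 5, 75932827 to 75978458), had 11 counts in tt and 27 in control (log2 ratio -1.34, -2.54 to -0.32). Both genes have no exon of another gene on the opposite strand, but the strand of their counted reads was not tested.

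Cdh5, the cadherin of endothelial junctions (chromosome 8, 104101625 to 104144511), had 15 counts in tt and 25 in control (log2 ratio -0.80, -1.85 to 0.16). Aqp1, a water channel of capillary endothelium and red cells (chromosome 6, 55336432 to 55348555), had 17 counts in tt and 30 in control (log2 ratio -0.88, -1.85 to 0.003). Both ratios were smaller than 2-fold, and each interval reached equality.

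Summed over the set, the endothelial members held 145 counts in tt and 285 in control (log2 ratio -1.05, -1.36 to -0.76). Without Fabp4 the sums were 43 in tt and 82 in control (log2 ratio -1.01, -1.58 to -0.46), so the lower sum did not rest on that gene. The make-up of the set was close in both libraries: Fabp4 was 70.3% of it in tt (exact 95% binomial interval 62.2 to 77.6) and 71.2% in control (65.6 to 76.4). Aqp1 was 11.7% in tt (6.98 to 18.1) and 10.5% in control (7.22 to 14.7).

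Among the mural members, Tagln (chromosome 9, 45929619 to 45936058) had 26 counts in tt and 36 in control (log2 ratio -0.54, -1.34 to 0.22). Acta2, the smooth muscle actin (chromosome 19, 34241090 to 34255590), had 17 counts in tt and 24 in control (log2 ratio -0.57, -1.57 to 0.38). Notch3 (chromosome 17, 32120820 to 32166852) had 24 counts in tt and 21 in control (log2 ratio 0.11, -0.80 to 1.03). All 3 intervals span equality. Tagln faces Pcsk7 (0 counts in tt and 1 in control) and Gm48529, and Notch3 faces Gm17276. Gm48529 and Gm17276 have no row in the files used here. The summed mural counts were 67 in tt and 81 in control (log2 ratio -0.35, -0.85 to 0.13), and mural counts made up 31.6% of all members' counts in tt (25.4 to 38.3) and 22.1% in control (18.0 to 26.7).

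Of the 7 members, 2 were thus counted as lower and 0 as higher in the DCM pair, where a gene counts when it is at least 2-fold apart and its interval excludes equality. By the same rule 9.55% of the 3078 genes with at least 10 counts in the pair were counted in either direction, 6.04% as higher and 3.51% as lower; over all 8248 genes with a count it was 4.28%. The median log2 ratio was -0.98 over the 4 endothelial members and -0.54 over the 3 mural members with counts. It was -0.06 over the genes with at least 10 counts, of which 52.0% had a negative ratio.

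Markers of other cell types also differed in the DCM pair, and their part in these results was not tested. Lyz2, the lysozyme of macrophages, had 5 counts in tt and 28 in control, and the 12 macrophage markers, of which 8 had a count, summed to 19 in tt and 53 in control. Fibroblast markers, of which 10 of 12 had a count, summed to 69 in tt and 99 in control (358 and 544 scaled CPM). Cardiomyocyte markers summed to 4855 in tt and 5048 in control (25210 and 27753 scaled CPM). Fabp4 is also a fat cell gene, and the part of fat cells in its difference was not tested. Of the 11 fat cell genes, 7 were listed at 0 in all 4 libraries: Adipoq and Lep, with 1 transcript each, and Plin1, Cfd, Retn, Cidec and Pparg, which have more. These zeros too are given as listed. Lpl, which is on both the fat cell and the endothelial list, had 1331 counts in tt and 1107 in control, Car3 had 0 in tt and 1 in control, and Cd36 had 1 in tt and 0 in control. All 8 red cell markers, the globins among them, were listed at 0 in all 4 libraries, 6 of them with 1 transcript.

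The HCM pair asks how hearts with the variant MYBPC3 transgene differ from nontransgenic hearts. Acta2 and Aqp1 were about 3-fold higher in dC10mut than in NTG. The Notch3 row, which faces Gm17276, was 3.49-fold lower, while Fabp4 had a log2 ratio of 0.03. The summed endothelial counts were 255 in dC10mut and 224 in NTG (log2 ratio -0.04, -0.30 to 0.23). The summed mural counts were 61 in dC10mut and 68 in NTG (log2 ratio -0.38, -0.90 to 0.14).

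Acta2 had 24 counts in dC10mut and 6 in NTG, which is 3.25-fold higher (log2 ratio 1.70, 0.45 to 3.36). Aqp1 had 29 counts in dC10mut and 8 in NTG, 2.99-fold higher (log2 ratio 1.58, 0.47 to 2.97). In both genes it was NTG that stood apart: the other 3 libraries held 17 to 24 counts of Acta2 and 17 to 30 of Aqp1. Reads of Acta2 can be shared with other actin genes, since the coding sequences are much alike, and Actc1, the actin of heart muscle, had 1403 counts in dC10mut and 906 in NTG. How the counting treated such reads is not given in the sources used here.

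Notch3 had 11 counts in dC10mut and 34 in NTG (log2 ratio -1.80, -2.98 to -0.84). The dC10mut library was lowest and NTG highest of the 4, with 21 and 24 counts in the others. Tagln had 26 counts in dC10mut and 28 in NTG (log2 ratio -0.32, -1.16 to 0.49), an interval that spans equality. Notch3 faces Gm17276, and Tagln faces Pcsk7 and Gm48529, so neither row can be assigned to a single gene.

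Within the endothelial set, Fabp4 had 184 counts in dC10mut and 154 in NTG (log2 ratio 0.03, -0.28 to 0.35). Kdr had 18 counts in dC10mut and 23 in NTG (log2 ratio -0.56, -1.55 to 0.38). Cdh5 had 24 counts in dC10mut and 39 in NTG (log2 ratio -0.91, -1.72 to -0.15), an interval that excludes equality with a difference smaller than 2-fold. The NTG library held the most Cdh5 of the 4 libraries and the least Aqp1.

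**Figure D2:**
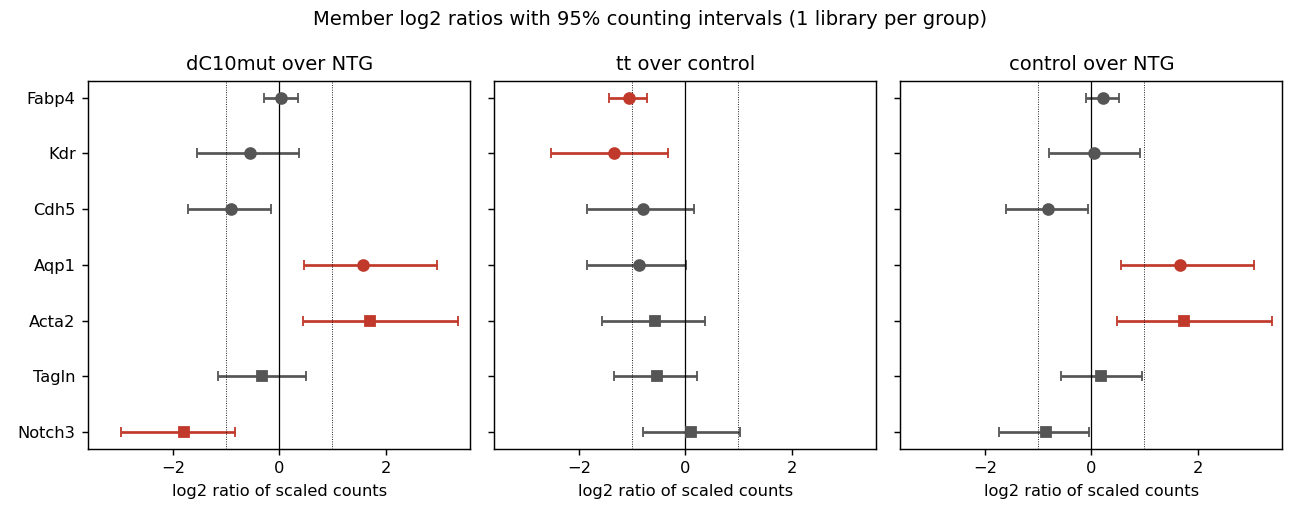
Log2 ratios of scaled counts with exact conditional 95% intervals for the 7 members with counts, in dC10mut over NTG, tt over control and control over NTG; circles are endothelial and squares mural genes, red marks those at least 2-fold apart with an interval that excludes equality, and dotted lines mark 2-fold. In tt over control all 4 endothelial genes lie left of 0, while Acta2 and Aqp1 are to the right in both ratios over NTG.

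Shares within a set do not depend on how libraries are scaled. Acta2 was 39.3% of the mural counts in dC10mut (27.1 to 52.7) and 8.82% in NTG (3.31 to 18.2). Notch3 was 18.0% in dC10mut (9.36 to 30.0) and 50.0% in NTG (37.6 to 62.4). Tagln was 42.6% in dC10mut (30.0 to 55.9) and 41.2% in NTG (29.4 to 53.8). Of the endothelial counts other than Fabp4, Aqp1 was 40.8% in dC10mut (29.3 to 53.2) and 11.4% in NTG (5.07 to 21.3), and Cdh5 was 33.8% in dC10mut (23.0 to 46.0) and 55.7% in NTG (43.3 to 67.6).

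**Figure D3:**
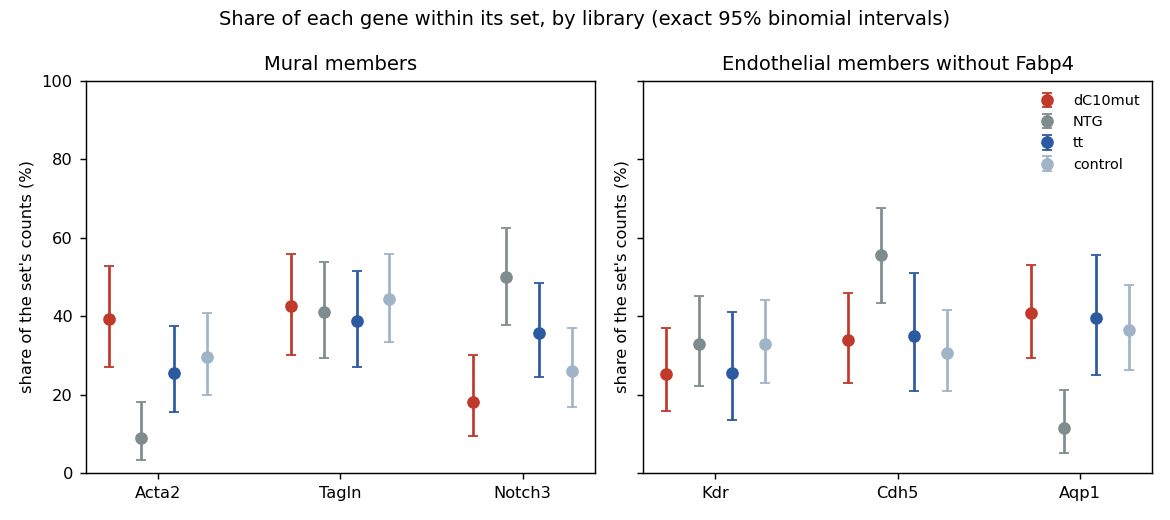
Share of each gene in the counts of its set, in percent, by library: mural genes on the left and endothelial genes other than Fabp4 on the right, with exact 95% binomial intervals. NTG is lowest for Acta2 (8.82%) and Aqp1 (11.4%) and highest for Notch3 (50.0%) and Cdh5 (55.7%).

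In this pair 3 of the 7 members were counted as apart, 2 higher and 1 lower. By the same rule 9.94% of the 2866 genes with at least 10 counts in the pair were counted, 4.26% as higher and 5.69% as lower, and 4.33% of all 8033 genes with a count. The median log2 ratio was -0.27 over the endothelial members and -0.32 over the mural members with counts, against -0.00 over the genes with at least 10 counts. Markers of other cells differed here too, and their part was not tested: macrophage markers summed to 55 counts in dC10mut and 19 in NTG, with Lyz2 at 28 in dC10mut and 6 in NTG. Fibroblast markers summed to 102 counts in dC10mut and 75 in NTG (545 and 468 scaled CPM), with a median log2 ratio of -0.15 over the 9 measured. Of these, 2 were counted as higher, Dpt (38 counts in dC10mut and 14 in NTG) and Smoc2 (22 in dC10mut and 8 in NTG), and none as lower. The collagen genes had fewer counts in dC10mut than in NTG: Col1a1 had 5 in dC10mut and 8 in NTG, Col1a2 had 2 in dC10mut and 7 in NTG, and Col3a1 had 18 in dC10mut and 23 in NTG. Cardiomyocyte markers summed to 6588 counts in dC10mut and 4580 in NTG (35179 and 28555 scaled CPM), but none was counted as higher or lower. Their median log2 ratio was -0.06 over the 9 measured. It was 0.18 over the 6 with at least 10 counts, of which 4 had a positive and 2 a negative ratio.

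The libraries control and NTG show how far the members lay apart between the control hearts of both strain labels. They are also the references of the pairs above, so these ratios share counts with those. Acta2 had 24 counts in control and 6 in NTG (log2 ratio 1.74, 0.49 to 3.40). Aqp1 had 30 counts in control and 8 in NTG (log2 ratio 1.67, 0.57 to 3.06). These 2 of the 7 members were counted as higher, where 3.17% of the 2839 genes with at least 10 counts were counted as higher and 3.45% as lower (6.62% in all, and 3.09% of the 8152 genes with a count). Macrophage markers also differed, with a sum of 53 counts in control and 19 in NTG and Lyz2 at 28 in control and 6 in NTG (counted as higher by the same rule), and their part was not tested. The log2 ratios of Acta2 and Aqp1 in the HCM pair, which share the NTG counts, were 1.70 and 1.58. Cdh5 (log2 ratio -0.81, -1.61 to -0.06) and Notch3 (log2 ratio -0.86, -1.74 to -0.05) were lower in control than in NTG by less than 2-fold. Fabp4 (log2 ratio 0.22, -0.09 to 0.53), Kdr (0.05, -0.81 to 0.92) and Tagln (0.18, -0.57 to 0.95) had intervals that span equality.

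Setting both pairs side by side asks whether the models moved the vessel genes alike. Kdr, Cdh5 and Tagln had negative ratios in both pairs. For Fabp4 the difference of the log2 ratios (HCM pair minus DCM pair) was 1.10, with a counting interval of 0.64 to 1.57. That difference was 2.46 for Aqp1 (1.07 to 3.85), 2.27 for Acta2 (0.74 to 3.80) and -1.91 for Notch3 (-3.18 to -0.64). It was 0.77 for Kdr (-0.55 to 2.10), 0.22 for Tagln (-0.83 to 1.27) and -0.11 for Cdh5 (-1.28 to 1.05). Thus 4 of the 7 members had ratios at least 2-fold apart between the pairs, where 15.6% of the 1797 genes with at least 40 counts over the 4 libraries did, and 5.8% of all 6937 genes with a count in both pairs. For Aqp1 and Acta2 this includes the low NTG library. The members were chosen with earlier results of these data known, so setting their counts beside all genes is no test.

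**Figure D4:**
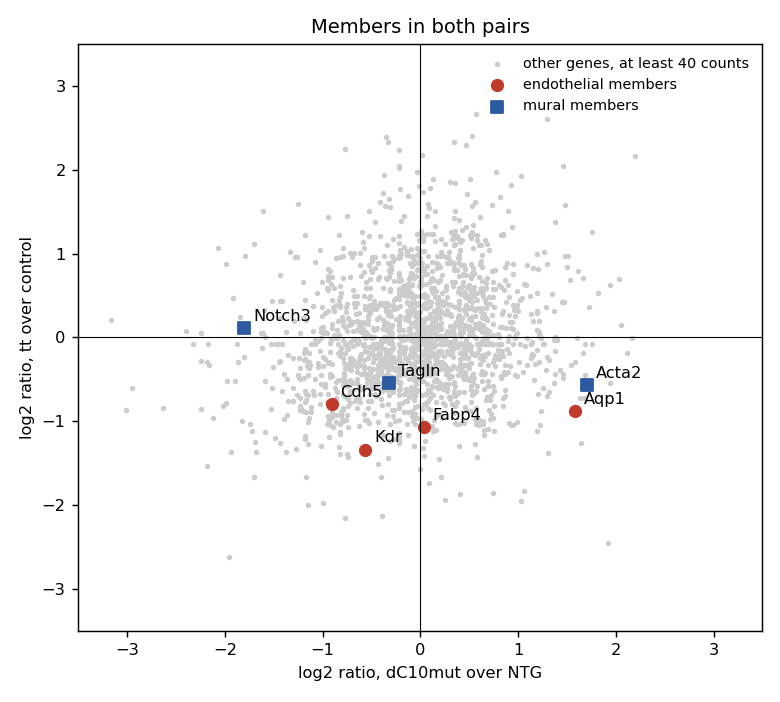
Log2 ratio in the DCM pair (tt over control, vertical axis) against that in the HCM pair (dC10mut over NTG, horizontal axis); red circles are endothelial members, blue squares mural members, and grey points 1790 other genes with at least 40 counts, of which 5 lie beyond the axes. Fabp4 and Kdr lie below -1 on the vertical axis, Acta2 and Aqp1 lie right of 1 and Notch3 left of -1 on the horizontal axis.

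A difference common to both mutants was sought in all 4 libraries by edgeR (quasi-likelihood test), each pair forming a block, which left 1 residual degree of freedom. Its p-values rest mostly on a spread estimated over all genes, and little on a gene's own disagreement between the pairs. The standard errors given here are the absolute log2 difference over the square root of the test's F statistic. Aqp1, with log2 ratios of 1.58 (HCM pair) and -0.88 (DCM pair), had a standard error of 0.49. Kdr, with -0.56 (HCM pair) and -1.34 (DCM pair), had the same. The p-values cover these 4 pools only. Tsix had counts in dC10mut and tt and 0 in NTG and control, so the tested term cannot tell sex and genotype apart. None of the 7 members passed, at an adjusted p of 0.998 for each (Benjamini-Hochberg over 7360 genes). In all, 13 genes (0.177%) passed, and 320 had an unadjusted p under 0.05. Kdr had the lowest p of the members by edgeR (unadjusted p = 0.0467, log2 difference -0.97, standard error 0.49, lower in 2 of 2 pairs), followed by Cdh5 (unadjusted p = 0.0515, log2 difference -0.89, standard error 0.46, lower in 2 of 2 pairs). By DESeq2, 0 of the 7 members had an unadjusted p under 0.05, 41 of all genes did, and 0 genes passed after adjustment.

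Beyond the 10 members, 36 further endothelial genes were set beside them, of which 25 had a count and 6 reached 10 counts in a library. None was at least 2-fold apart by the rule in either pair, of 24 measured in the DCM pair and 23 in the HCM pair. By the rule 4.28% of all genes with a count were counted in the DCM pair and 4.33% in the HCM pair. Among the 10 further endothelial genes with at least 10 counts in the DCM pair, 7 had a negative ratio (median log2 ratio -0.39). Flt1, the other main receptor of vascular endothelial growth factor, had 8 counts in tt and 16 in control (log2 ratio -1.04, -2.51 to 0.23), and 9 in dC10mut and 8 in NTG. Pltp, a phospholipid transfer protein that faces Ctsa, had 202 counts in tt and 298 in control (log2 ratio -0.64, -0.91 to -0.38), and 257 in dC10mut and 235 in NTG. Ptprb, a phosphatase of endothelial cells, had 22 counts in tt and 22 in control, and 24 in dC10mut and 20 in NTG. Nos3, the endothelial nitric oxide synthase, had 12 counts in tt and 4 in control (log2 ratio 1.40, -0.22 to 3.59), and it faces Atg9b. Adgrl4, an adhesion receptor of endothelium, had 15 counts in tt and 8 in control, and 9 in dC10mut and 15 in NTG. Lpl, which heart muscle cells also make, had a log2 ratio of 0.18 in the DCM pair (0.07 to 0.30).

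Of 14 arterial and venous endothelial genes, 9 had a count, and none was counted as apart in either pair. Over all genes with a count the shares were 4.28% (DCM pair) and 4.33% (HCM pair). Notch1, the Notch receptor of endothelium, had 10 counts in tt and 19 in control (log2 ratio -0.97, -2.28 to 0.17), and 5 in dC10mut and 12 in NTG (log2 ratio -1.39, -3.34 to 0.12). Gene rows that face it belong to 0610009E02Rik and Gm13568. In the Notch list as a whole, 14 of 16 genes had a count, and Notch3 in the HCM pair was the 1 gene counted in either pair. Its ligand genes were near the limit of counting: Jag1 had 6 counts in dC10mut and 1 in NTG, and 2 in tt and 6 in control.

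The list of vascular endothelial growth factor and angiopoietin signalling had 11 of 18 genes with a count. Over all genes with a count, 4.28% were counted in the DCM pair and 4.33% in the HCM pair. In the list, Kdr in the DCM pair was the 1 counted gene. Its 3 genes with at least 10 counts in that pair all had negative ratios (median log2 ratio -1.04), as had its 4 such genes in the HCM pair (median -0.93); Kdr is 1 of them in both.

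Among 24 other mural genes, 14 had a count and 2 reached 10 counts in a library. Rgs5, a regulator of G protein signalling in pericytes, had 120 counts in dC10mut and 65 in NTG (log2 ratio 0.66, 0.21 to 1.12), and 86 in tt and 95 in control (log2 ratio -0.22, -0.66 to 0.21). Mylk, the myosin light chain kinase, had 34 counts in dC10mut and 19 in NTG (log2 ratio 0.60, -0.23 to 1.51), and 26 in tt and 26 in control; it faces E130310I04Rik. Neither was 2-fold apart. Carmn, a noncoding RNA of smooth muscle named after its values were seen, was the 1 gene of this list counted, as lower in the DCM pair. It had 0 counts in tt and 7 in control, and 1 in dC10mut and 3 in NTG. Of all genes with a count, 4.28% were counted in the DCM pair and 4.33% in the HCM pair.

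Markers of the other endothelia were too few to compare. The lymphatic genes summed to 13 counts in dC10mut and 6 in NTG, and 2 in tt and 7 in control. The endocardial genes summed to 13 counts in dC10mut and 9 in NTG, and 3 in tt and 8 in control. Platelet markers summed to between 3 and 5 counts per library.

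Across the 4 libraries, the genes whose centred log2 levels lay nearest to those of Fabp4, of 899 with at least 100 counts, were Flot1, Anp32a, Pgam2, A430057M04Rik and Bccip, at Euclidean distances of 0.12 to 0.18. Flot1, for example, had 33 counts in dC10mut and 26 in NTG, and 19 in tt and 38 in control. Nearest to the summed mural members were Ccna2, Chn1os3, D230025D16Rik, Gpsm2 and Eif5b, at distances of 0.06 to 0.09, of which all 5 face another gene. This likeness is a description over 4 libraries.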

How the data were processed

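Per the labels' protocols, total RNA of whole hearts was captured on oligo-dT beads and made into stranded libraries. STAR, HTSeq and the build mm10 are named per the submitters' processing notes; no source used here gives versions, counting mode or strand setting. The files the authors deposited hold unnormalized counts for 41449 RefSeq transcripts, with no rows for unassigned reads. RefSeq's GRCm38.p6 table gave a symbol to 41252 of them, and the 197 others were kept as features of their own. Genes facing another exon on the opposite strand were found in GENCODE M21 (GRCm38), which also gave gene positions and transcript lengths.

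Counts were summed per symbol and scaled by library totals (187365 in dC10mut, 170543 in NTG, 186420 in tt and 176633 in control) times TMM factors from edgeR 4.0.16. Log2 ratios used a prior of 0.5 counts, in proportion to library size, with exact Clopper-Pearson conditional binomial 95% intervals and no p-value, since each group has 1 library. The interval of a difference between pairs used a normal approximation. The common difference was tested by edgeR (quasi-likelihood) with a block for each pair, keeping genes at 1 CPM or more in at least 2 libraries. That block comes from the design text, which names each model's control, and not from replicate numbers. DESeq2 1.42.0 was an alternative. Intervals cover counting error only, and they may be too narrow even for that, since PCR copies are not independent molecules. The calculations were tested on simulated counts, which checks them and says nothing about the spread between hearts.

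The members and gene lists were chosen with earlier results of these data known. The genes named are the 10 members, genes that face them, genes of the lists with at least 10 counts in a library, and the 5 genes nearest in pattern to Fabp4 and to the summed mural members; list genes below 10 counts were named after their values were seen.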

Additional observations from a re-analysis of the deposited data

Results flagged for a closer look

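The log2 ratios of 4 members had opposite signs in the pairs, and their difference was at least 2-fold with a counting interval that excludes equality; with 1 library per group the difference was not tested against replicate spread. The difference of the ratios (dC10mut over NTG minus tt over control) was 1.10 for Fabp4, 2.46 for Aqp1, 2.27 for Acta2 and -1.91 for Notch3. For each of the 4, the ratio of 1 pair had an interval that includes equality, so that its own sign is not settled: Fabp4 at 0.03 (-0.28 to 0.35) and, in the DCM pair, Aqp1 at -0.88 (-1.85 to 0.003), Acta2 at -0.57 (-1.57 to 0.38) and Notch3 at 0.11 (-0.80 to 1.03). With TMM over genes without an opposite-strand exon, Fabp4 was negative in both, at -0.08 (dC10mut over NTG) and -1.09 (tt over control). Aqp1 and Acta2 had their lowest counts in NTG (8 and 6), and Notch3 its lowest in dC10mut (11). The row of Notch3 faces Gm17276 and cannot be assigned to one of both genes.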

How the results depend on the processing

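None of 162 alternative values changed a call's direction or moved a count of members by over 1.5 times, and the 105 ratios of single members among them stayed within their main counting interval. A change of scaling moved the ratios of a pair by 0.13 (log2) or less. The counting intervals reach further than that, so staying within them was a weak check. The floor of 3 counts and the minimum of 10 counts over a pair gave 37 more values that could not differ, since every member with counts lies above both, and choosing 1 transcript could act on the members through the scaling only. The alternatives were library totals or DESeq2 size factors in place of TMM, a prior count of 2, the transcript with the most counts in place of the sum, counts raised to the floor of 3, members with at least 10 counts for the medians, and, for the common difference, DESeq2, other filters and a fit without the pair block. Scaling by TMM over genes without an opposite-strand exon was chosen after seeing the data. It moved the median of all genes by -0.11 (log2) in the HCM pair, where 4 in place of 3 members were then counted, with Cdh5 at -1.02. It also turned the sign of 2 ratios near 0: Fabp4 in dC10mut over NTG (-0.08) and Kdr in control over NTG (-0.04). Library totals moved the median of control over NTG by 0.13. In each pair the counts of the members at least 2-fold apart were otherwise 3 (HCM), 2 (DCM) and 2 (control over NTG), and no fit called a member for the common difference. Over all genes that difference was called in 13, against 1 without the pair block, 0 by DESeq2, 7 among genes with at least 40 counts and 3 among genes without an opposite-strand exon (a fit also chosen after seeing the data). Each pair served as a block in the common fit; beyond that, replicates could be neither paired by number nor left out, since each group has 1 library. The low counts are a limit: outside Fabp4 a member held 6 to 39 counts, at which a 2-fold difference often lies within counting error.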
